A study of Homo sapiens with 9 samples.

Results

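Kinesins are motor proteins that use ATP to move along microtubules or to take microtubules apart. The kinesins described here were taken from an RNA-seq table of A375 cells by name, as every gene whose symbol is KIF or KIFC followed by a number. The rule used no measured value and gave 41 of the 18430 genes in the table. A table entry carried under an older symbol that fits the pattern is KIFBP, a kinesin-binding protein and no motor, and was left out. By textbook role, 13 members were grouped as mitotic kinesins, 15 as transport kinesins and 13 as others. The classes are a choice: KIF20B, KIF2A, KIFC3 and KIF24 could be placed in another one. KIF2B was not analysed here.

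A375 is an established human melanoma line whose BRAF gene carries the V600E mutation, and all 9 libraries came from it. Vemurafenib, an inhibitor of mutant BRAF, was given at 10 µM for 3 days. Cisplatin, which crosslinks DNA, was given at 2 µM for 1 day. Both treated groups were then kept without drug and collected on day 7, while the control cells were kept in normal culture. The labels do not say on which day the control cells were collected. There were 3 libraries in each group, and the labels do not say whether they came from separate cultures, so the p-values measure only the spread between these libraries. Drug, dose, length of exposure and time without drug differ together between the vemurafenib and cisplatin libraries and cannot be told apart. Since the RNA came from bulk cells, fewer cells in mitosis and less mitotic RNA per cell cannot be told apart either.

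Mitotic kinesins work for a short time in each cell cycle. KIF11 and KIF15 push the spindle poles apart, KIFC1 gathers microtubules at the poles, KIF2C, KIF18A and KIF18B control microtubule length, KIF4A and KIF22 bind chromosome arms, and KIF14, KIF20A, KIF20B and KIF23 act in cytokinesis. Many of their genes are read mainly in G2 and mitosis, and the promoters of such genes often hold a CCAAT box, bound by NF-Y, and a cell cycle genes homology region, bound by the DREAM complex in resting cells and by MYBL2 and FOXM1 complexes in dividing ones. Transport kinesins carry vesicles, mitochondria and other cargo through the cell at all times.

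The promoters of the classes were compared as letters only, without any expression value. RefSeq promoter windows of GRCh38.p14, each 300 bases long, were searched on both strands for CCAAT and for a homology element, taken as TTTGAA or its variant with the letters TTCGAA. Of the 41 kinesins, 33 had a window (13 mitotic, 11 transport and 9 other), some of them several for different start sites. KIF5A, KIF13B, KIF19, KIF21B, KIF26B, KIF27, KIFC2 and KIFC3 had none in the table. Of 14 windows of mitotic kinesins, 12 (85.7%) held a homology element, 11 (78.6%) a CCAAT box and 10 (71.4%) both. These windows are not all separate: the pair belonging to KIF22 overlaps and counts the same TTCGAA in each, and 1 window belongs to KIF4B, a retrocopy of KIF4A that was too rare to be tested. Of 16 windows of transport kinesins, 1 held both (6.25%), and it belongs to KIF5B, while 5 (31.2%) held a CCAAT box. Of 12 windows of the other kinesins, 1 held both (8.33%), and it belongs to KIF24. Among all 35114 windows in the table, 16.4% held a homology element, 34.6% a CCAAT box and 6.38% both. A match is a string of letters and no shown binding site. The following windows run 5′ to 3′ on the strand of the gene, from 170 bases before to 30 bases after the start site of the window. Capitals mark both kinds of match. In KIFC1 and KIF24 this start site lies downstream of the outermost start of the gene. A CCAAT box on the opposite strand reads ATTGG, and a homology element there can read TTCAAA when printed on the strand of the gene. The windows of these 8 genes are examples, chosen by the decrease after cisplatin or by the elements held or lacking. They are 5 mitotic kinesins with the largest decreases after cisplatin or with both elements, KIF24 of the other kinesins, and a pair of transport kinesins with neither element. The mitotic KIF2C, with neither element, and the transport kinesin KIF5B, with both, are not printed.
KIF20A, chr5:138178942-138179141, plus strand: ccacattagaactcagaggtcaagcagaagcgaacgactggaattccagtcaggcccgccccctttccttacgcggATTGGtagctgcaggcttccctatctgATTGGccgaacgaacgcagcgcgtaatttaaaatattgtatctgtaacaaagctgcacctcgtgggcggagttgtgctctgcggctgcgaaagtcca
KIF18B, chr17:44947744-44947943, minus strand: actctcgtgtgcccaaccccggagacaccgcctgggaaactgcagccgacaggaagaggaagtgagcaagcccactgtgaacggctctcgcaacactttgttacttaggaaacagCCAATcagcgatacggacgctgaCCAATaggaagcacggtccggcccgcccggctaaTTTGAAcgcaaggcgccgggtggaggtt
KIFC1, chr6:33391653-33391852, plus strand: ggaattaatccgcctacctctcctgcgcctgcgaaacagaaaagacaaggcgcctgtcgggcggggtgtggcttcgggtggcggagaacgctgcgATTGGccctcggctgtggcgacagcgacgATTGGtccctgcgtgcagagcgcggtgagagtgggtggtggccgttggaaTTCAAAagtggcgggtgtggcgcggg
KIF4A, chrX:70289934-70290133, plus strand: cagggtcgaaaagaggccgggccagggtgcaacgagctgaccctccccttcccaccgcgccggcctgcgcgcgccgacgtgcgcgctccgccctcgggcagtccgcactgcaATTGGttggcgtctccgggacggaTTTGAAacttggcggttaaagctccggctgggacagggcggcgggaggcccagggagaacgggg
KIF23, chr15:69414179-69414378, plus strand: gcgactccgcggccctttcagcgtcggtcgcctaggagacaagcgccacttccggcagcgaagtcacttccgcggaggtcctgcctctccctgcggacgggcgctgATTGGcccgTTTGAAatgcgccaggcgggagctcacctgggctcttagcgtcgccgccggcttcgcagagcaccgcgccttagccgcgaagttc
KIF24, chr9:34329239-34329438, minus strand: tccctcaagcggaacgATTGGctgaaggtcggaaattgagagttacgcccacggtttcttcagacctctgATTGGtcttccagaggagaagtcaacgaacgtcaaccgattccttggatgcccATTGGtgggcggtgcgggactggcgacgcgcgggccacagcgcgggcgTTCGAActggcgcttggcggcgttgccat
KIF3C, chr2:25982468-25982667, minus strand: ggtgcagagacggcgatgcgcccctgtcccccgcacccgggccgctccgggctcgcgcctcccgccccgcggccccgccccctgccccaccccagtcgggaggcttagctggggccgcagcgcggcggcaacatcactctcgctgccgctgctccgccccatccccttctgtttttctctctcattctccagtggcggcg
KIF13A, chr6:17987606-17987805, minus strand: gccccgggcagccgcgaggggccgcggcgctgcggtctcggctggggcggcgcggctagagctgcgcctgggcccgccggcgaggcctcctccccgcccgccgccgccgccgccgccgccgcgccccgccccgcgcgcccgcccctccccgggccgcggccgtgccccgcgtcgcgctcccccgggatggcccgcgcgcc

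KIF23 and KIF4A have a single CCAAT box just upstream of a single TTTGAA. The homology elements of KIF18B, KIFC1 and KIF24 lie at the start site of the window, downstream of 2 CCAAT boxes in KIF18B and KIFC1 and of 3 in KIF24. KIF20A has 2 CCAAT boxes and none of the homology letters searched, and KIF2C has neither element in its window. The windows of KIF3C and KIF13A are rich in C and G and hold no match.

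Library totals lay between 14481020 and 16038475 estimated counts. Levels are given as CPM, counts relative to the library total after scaling between libraries. Levels of different genes are compared in TPM, the authors' transcript abundance relative to the library, which is per length. Vemurafenib replicate 1 stood apart from the other vemurafenib libraries on the third principal component (39.1, against −22.3 and −22.7). Its deviation from them fell with gene length, with a Spearman rho of −0.76 across the 36 kinesins tested and −0.6 across 13982 genes; genes of 1 library do not count as independent. The part of this trend in the results was not tested, and results that turn on this library are also given without it. SOX10, a transcription factor of the melanocyte lineage, averaged 804.4 TPM after vemurafenib, 610.1 TPM after cisplatin and 730.4 TPM in control cells, while the pigment genes MLANA and TYR stayed below 1 TPM on average. Other markers of the lineage moved with the groups: DCT averaged 125.1 TPM after vemurafenib, 0.32 TPM after cisplatin and 0.0433 TPM in control cells, and S100B averaged 583.9 TPM after vemurafenib and 30.6 TPM in control cells, with cisplatin libraries between 257.6 and 375.8 TPM. Of the markers of other cell types, PTPRC of blood, CDH5 of endothelium and THY1 of fibroblasts were at or near 0. Others on the same lists were not. LYZ averaged 8.49 TPM after vemurafenib, 58.8 TPM after cisplatin and 10.7 TPM in control cells, KDR 5.86, 18.7 and 5.46 TPM, LUM 13.2, 13.2 and 2.98 TPM, and PDGFRB 6.41, 1.83 and 4.83 TPM. Among epithelial markers, KRT18 averaged 148.2 TPM after vemurafenib, 281.6 TPM after cisplatin and 385.4 TPM in control cells. KRT8 averaged 16.5, 53.1 and 26.8 TPM in these groups. CLDN4 and KRT14 were highest in control cells, while EPCAM, CDH1, KRT5 and KRT19 stayed below 1 TPM on average. The part of these markers in the kinesin results was not tested.

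Of the 41 kinesins, 36 had enough counts to be tested: 12 mitotic, 14 transport and 10 other. The 5 below the count filter were KIF4B, KIF17, KIF19, KIF25 and KIF26A, of which the most abundant, KIF17, had 7 counts over the vemurafenib libraries, 12 over the cisplatin libraries and 5 over the control libraries. KIF4B is a retrocopy of KIF4A, and how the counting divided reads between the pair is not given in the sources used here.

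In control cells, mitotic kinesins were the most abundant class. KIF22 led the family with 101.5 ± 8.39 TPM, followed by KIF2C at 96.0 ± 6.74 TPM and KIF20A at 91.2 ± 10.3 TPM (SD, n = 3 each), which lie within each other's spread. KIF5B, the ubiquitous heavy chain of kinesin-1, came next at 80.9 ± 5.56 TPM. In both treated groups KIF5B ranked first, at 68.1 ± 25.7 TPM after vemurafenib and 67.4 ± 7.31 TPM after cisplatin. After vemurafenib this first place lay within the spread, since KIF22 averaged 56.8 ± 10.7 TPM and since in vemurafenib replicate 1 KIF5B was at 38.5 TPM, below KIF22 at 69.0, KIFC3 at 61.7 and KIF20A at 54.6 TPM.

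Summed over members, the mitotic kinesins reached 348.2, 374.5 and 351.3 TPM in vemurafenib libraries, 47.9, 42.7 and 40.5 TPM in cisplatin libraries, and 639.4, 651.8 and 743.8 TPM in control libraries. The groups did not overlap. The sum of the transport kinesins was 334.4 ± 61.6 TPM after vemurafenib, 338.0 ± 22.7 TPM after cisplatin and 339.9 ± 14.6 TPM in control cells (SD, n = 3 each), and all groups overlapped. Within the vemurafenib group it was 263.2 TPM in replicate 1 and 370.5 and 369.4 TPM in the others. The overlap of the vemurafenib group with the other groups rests on replicate 1. Without it, the vemurafenib libraries lay above the cisplatin libraries (316.0, 336.6 and 361.3 TPM) and the control libraries (332.0, 330.9 and 356.7 TPM). The mitotic class therefore made up 47.1% ± 4.73 of kinesin TPM after vemurafenib, 9.53% ± 1.25 after cisplatin and 61.2% ± 0.926 in control cells.

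**Figure D1:**
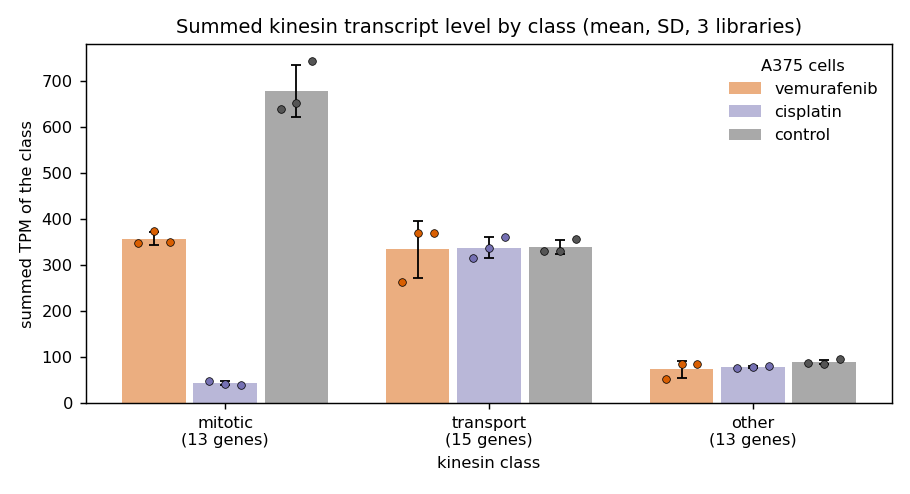
Summed level of the mitotic, transport and other kinesins in each library (TPM), by group, with points for libraries, bars for the group mean and error bars for the SD (n = 3). The mitotic sum separates the groups (358.0 TPM after vemurafenib, 43.7 after cisplatin and 678.3 in control cells), while the transport sum averages between 334.4 and 339.9 TPM. For the transport sum, vemurafenib replicate 1 is at 263.2 TPM, and the other vemurafenib libraries lie above all cisplatin and control libraries.

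Vemurafenib against control asks which kinesins differed from control some days after BRAF inhibition. Without libraries from cells on the drug, it cannot be told whether a change began during exposure or after it. The tested mitotic kinesins were lower, with log2 changes between −1.70 and −0.50. With edgeR's quasi-likelihood test and Benjamini-Hochberg adjustment over all 13989 genes tested, 3 of 36 kinesins rose and 21 fell, where 44.9% of all genes were called in either direction. By class, 12 of 12 tested mitotic kinesins fell, and none of their vemurafenib libraries overlapped the control libraries. Among all genes tested, 22.9% were called lower and 52.8% did not overlap. The median log2 change was −0.99 for the mitotic kinesins, against 0.01 for all genes tested.

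KIF14, which brings citron kinase to the midbody in cytokinesis, was at 20.4, 46.1 and 42.2 CPM in vemurafenib libraries and at 115.7, 112.6 and 124.4 CPM in control libraries. This was the largest decrease of the class in the main fit (log2 change −1.70, SE 0.25, adjusted p = 0.000226), and vemurafenib replicate 1 was the lowest library. Over the alternatives the log2 change of KIF14 ranged from −1.92 to −1.41 and that of KIF2C from −1.44 to −1.2. These ranges overlap, so the first place of KIF14 is not secure. KIF2C, a depolymerase that corrects faulty chromosome attachments, was at 65.3, 54.2 and 48.9 CPM after vemurafenib and at 132.9, 140.2 and 146.0 CPM in control cells (log2 change −1.32, SE 0.12, adjusted p = 4.12e-06). KIF18A, which damps chromosome movements at the spindle equator, was at 14.8, 16.8 and 13.2 CPM after vemurafenib and at 33.1, 32.1 and 35.6 CPM in control cells. Its log2 change was −1.17 (SE 0.15). KIF20B, KIF4A and KIF23 followed with log2 changes of −1.11, −1.08 and −1.03.

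KIF11, the motor that separates the spindle poles and the target of several antimitotic compounds, was at 86.7, 93.8 and 87.7 CPM after vemurafenib and at 177.8, 161.4 and 175.6 CPM in control cells, a level 1.92-fold lower (log2 change −0.94, SE 0.12, adjusted p = 6.45e-05). KIF20A (−0.93), KIFC1 (−0.93), KIF22 (−0.90) and KIF15 (−0.87) changed by nearly the same amount. KIF18B, which shortens astral microtubules, changed least, with 54.4, 42.5 and 40.8 CPM in vemurafenib libraries and 61.6, 60.3 and 72.7 CPM in control libraries. The groups of KIF18B lay close together, and its log2 change was −0.50 (SE 0.19, adjusted p = 0.0476). This call was lost in 9 of 19 alternative settings, among them leaving out vemurafenib replicate 2 or 3, cisplatin replicate 2 or any control library, with adjusted p between 0.00309 and 0.26 over all alternatives. Part of the KIF22 exons (13%) and of the KIFC1 exons (12.7%) overlaps a gene on the other strand, and without a statement of strand such reads cannot be told apart.

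**Figure D2:**
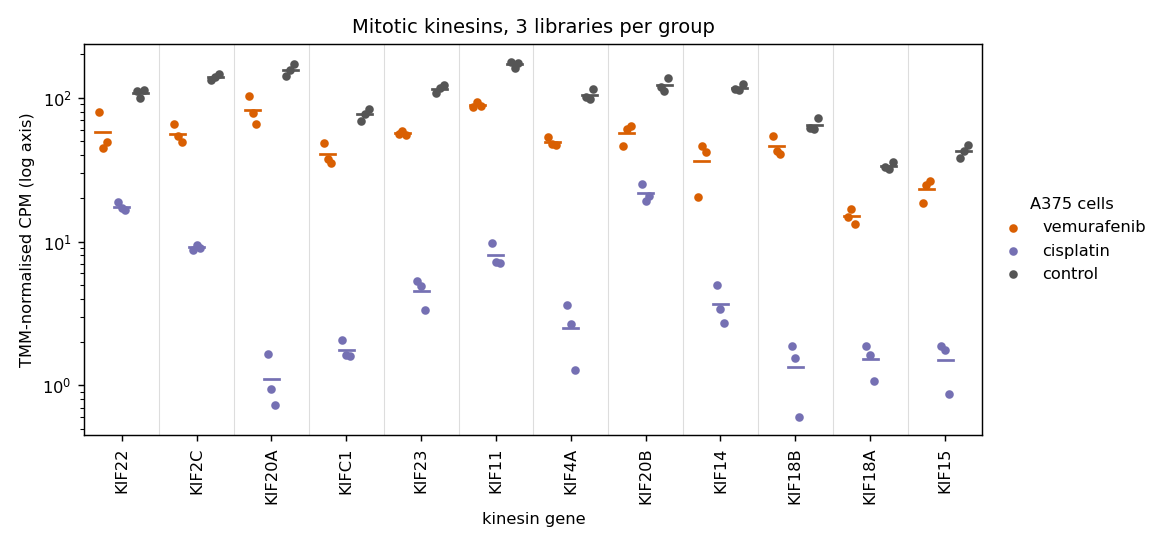
Level of each tested mitotic kinesin in every library (CPM, log axis), by group, with points for libraries and a line for the mean, and genes ordered by their TPM in control cells. Vemurafenib libraries lie below control libraries for each gene, and cisplatin libraries lie lowest, as for KIF20A at 82.2 ± 19.0, 1.11 ± 0.486 and 156.9 ± 14.9 CPM (SD, n = 3) after vemurafenib, after cisplatin and in control cells.

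The transport kinesins went in different directions after vemurafenib. Of 14 tested, 1 rose and 5 fell, where 22.0% of all genes rose and 22.9% fell. The groups did not overlap for 7 of them, where 52.8% of all genes tested did not overlap, and their median log2 change was −0.13. The one that rose was KIF13A, which in melanocytes carries recycling endosomes to maturing melanosomes. KIF13A was at 79.8, 109.5 and 90.4 CPM in vemurafenib libraries, 28.3, 30.0 and 36.8 CPM in cisplatin libraries and 32.1, 33.2 and 35.4 CPM in control libraries. Every vemurafenib library was above every other library (log2 change against control 1.47, SE 0.14, adjusted p = 7.48e-06).

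The members that fell were KIF3C, KIF1A, KIF5C, KIF5A and KIFC2. KIF3C, a kinesin-2 subunit that pairs with KIF3A, was at 22.3, 27.2 and 30.0 CPM after vemurafenib and at 97.9, 101.5 and 96.2 CPM in control cells, 3.72-fold lower (log2 change −1.89, SE 0.13, adjusted p = 5.94e-07). KIF1A, the carrier of synaptic vesicle precursors, was at 3.12, 3.87 and 6.55 CPM after vemurafenib and at 19.0, 23.2 and 24.5 CPM in control cells (log2 change −2.29, SE 0.24, adjusted p = 1.46e-05). Both groups of libraries were far apart for each of these genes. KIF5C and KIF5A, the neuronal kinesin-1 heavy chains, changed by −0.87 and −0.65 on the log2 scale (adjusted p = 0.0127 and 0.0098). KIFC2 changed by −0.47 (adjusted p = 0.0122), and 17.8% of its exonic bases overlap FOXH1 on the other strand. The KIF5C call was lost without control replicate 2 (adjusted p = 0.0505), and so was the KIFC2 call (0.0571). The abundant members did not pass the test. KIF5B was at 127.3, 212.9 and 222.7 CPM after vemurafenib and at 239.1, 233.4 and 255.9 CPM in control cells, a log2 change of −0.37 with adjusted p = 0.107. Vemurafenib replicate 1 was the low library, and without vemurafenib replicate 3 the change passed (log2 change −0.53, adjusted p = 0.0342). KIFC3 had a log2 change of −0.05 (SE 0.15), and KIF3B, which with KIF3A drives intraflagellar transport, had 0.19. Without vemurafenib replicate 1, KIF3B was called higher (log2 change 0.31, adjusted p = 0.00359), and 4 transport kinesins in all were called higher in place of 1. KIF1C, which carries vesicles, averaged 125.9 CPM after vemurafenib, 119.0 CPM after cisplatin and 108.2 CPM in control cells, with log2 changes of 0.22 and 0.14 (adjusted p = 0.12 and 0.322).

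**Figure D3:**
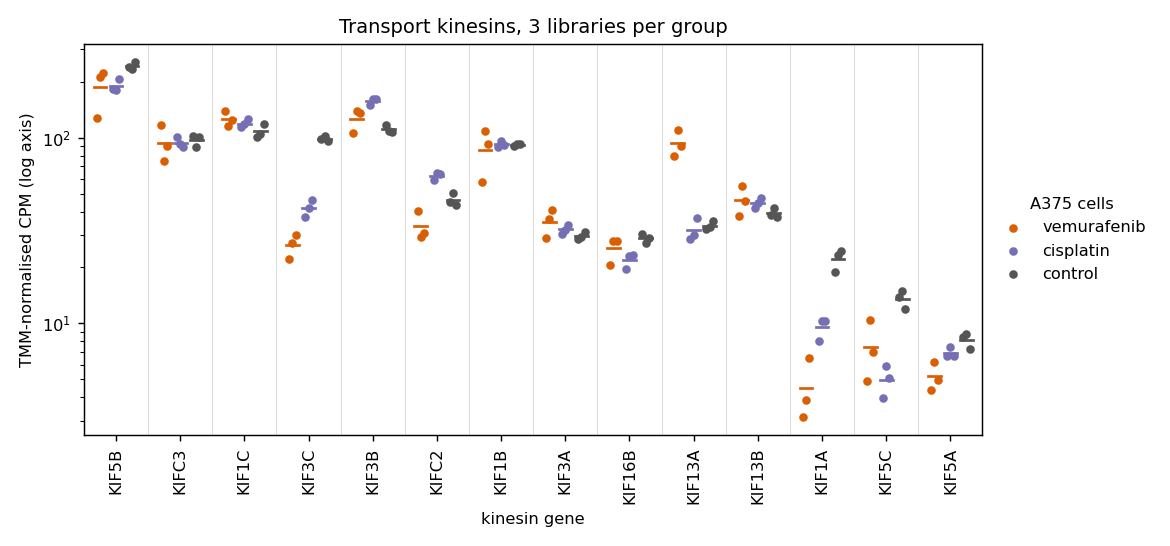
Level of each tested transport kinesin in every library (CPM, log axis), by group, with points for libraries and a line for the mean, and genes ordered by their TPM in control cells. KIF13A stands out with vemurafenib libraries above all others, and KIF3C and KIF1A lie lower in both treated groups.

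Of the 10 other kinesins tested, 2 rose and 4 fell after vemurafenib, where 22.0% of all genes rose and 22.9% fell. KIF21B, which restrains microtubule growth in neurons and lymphocytes, was at 7.48, 8.11 and 9.06 CPM in vemurafenib libraries, 38.2, 29.0 and 19.4 CPM in cisplatin libraries and 66.6, 76.8 and 69.5 CPM in control libraries. The 3 groups did not overlap (log2 change of vemurafenib against control −3.11, SE 0.21, adjusted p = 7.07e-07). Its relative KIF21A was at 12.0, 20.3 and 21.2 CPM after vemurafenib and at 27.3, 30.0 and 34.8 CPM in control cells (log2 change −0.78, adjusted p = 0.00614). KIF12 was rare in all groups and had 4 counts over the vemurafenib libraries, against 52 over the control libraries (log2 change −3.63, SE 0.56, adjusted p = 0.000307). KIF26B, which has no known motor activity and takes part in WNT5A-ROR signalling, was at 3.64, 6.98 and 7.40 CPM after vemurafenib and at 1.24, 0.995 and 0.834 CPM in control cells. It rose by a log2 change of 2.55 (SE 0.30, adjusted p = 4.32e-05), at a low level in all groups. KIF9, a motor of motile cilia, changed by 0.59 (adjusted p = 0.0298) and KIF24, a depolymerase that holds back cilia, by −0.43 (adjusted p = 0.0329). The KIF9 call was lost without vemurafenib replicate 1 or 2 or control replicate 2 or 3, and the KIF24 call without vemurafenib replicate 3, cisplatin replicate 2 or control replicate 1 or 3 (adjusted p up to 0.119 and 0.108). KIF2A, a depolymerase found through the whole cell cycle, did not pass (log2 change −0.36, adjusted p = 0.0983), but did with the replicate number as a block (−0.38, adjusted p = 0.0489) and without vemurafenib replicate 3 (−0.50, adjusted p = 0.0338). Counted with the mitotic kinesins, it would make their count 12 of 13. KIF7, a ciliary regulator of Hedgehog signalling, was between 17.6 and 21.1 CPM in vemurafenib libraries, 17.3 and 19.3 CPM in cisplatin libraries and 14.2 and 18.5 CPM in control libraries. The groups overlapped, and KIF7 passed in no comparison (log2 change 0.24 after vemurafenib, adjusted p = 0.162, and 0.14 after cisplatin, adjusted p = 0.433), but with total counts only it was called higher after vemurafenib (0.34, adjusted p = 0.0494). On the log2(TPM + 1) scale, which understates changes of low genes, limma did not call KIF5A (adjusted p = 0.0728), KIF5C (0.0602), KIF21A (0.0614) or KIF24 (0.143). It did not call them on the log2(TPM + 0.1) scale either (adjusted p = 0.0942, 0.0802, 0.062 and 0.219). The cause of these losses was not tested.

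Cisplatin against control uses the same control libraries. The mitotic kinesins fell, several of them to a few CPM. In all, 5 of 36 kinesins rose and 20 fell, where 46.3% of all genes tested were called. Of 12 mitotic kinesins, 12 were called lower with no overlap, where 23.5% of all genes tested were called lower and 67.0% did not overlap. Their median log2 change was −4.75, with a range of −7.13 to −2.50, against 0.00 for all genes.

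KIF20A, which carries the Aurora B complex to the central spindle, was at 1.66, 0.95 and 0.733 CPM in cisplatin libraries and at 142.6, 155.9 and 172.3 CPM in control libraries. It was 140.4-fold lower, the largest decrease of any kinesin tested (log2 change −7.13, SE 0.26, adjusted p = 3.69e-09). KIF18B was at 1.87, 1.56 and 0.599 CPM after cisplatin and at 61.6, 60.3 and 72.7 CPM in control cells (log2 change −5.59, SE 0.26, adjusted p = 2.36e-08). KIFC1, the minus-end motor that clusters extra centrosomes in tumour cells, was at 2.08, 1.63 and 1.60 CPM after cisplatin and at 69.3, 77.6 and 83.4 CPM in control cells, 43.3-fold lower. KIF4A, a chromosome-bound motor that with PRC1 sets the length of the central spindle, was at 3.60, 2.65 and 1.27 CPM after cisplatin and at 100.9, 97.6 and 114.1 CPM in control cells, 41.6-fold lower. For these 4 genes the highest cisplatin library was far below the lowest control library.

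The next members were KIF14 (log2 change −4.99), KIF15 (−4.82), KIF23 (−4.68), KIF18A (−4.46), KIF11 (−4.41) and KIF2C (−3.94). KIF23, which with RACGAP1 forms centralspindlin, was at 5.33, 4.89 and 3.33 CPM after cisplatin and at 107.1, 117.4 and 122.6 CPM in control cells. KIF11 was at 9.83, 7.19 and 7.13 CPM after cisplatin and at 177.8, 161.4 and 175.6 CPM in control cells, 21.3-fold lower. The smallest decreases were those of KIF22, 6.18-fold, and KIF20B, 5.65-fold. KIF22, the chromokinesin that pushes chromosome arms outward, was at 18.8, 17.0 and 16.5 CPM after cisplatin and at 110.7, 99.3 and 113.0 CPM in control cells (log2 change −2.63, SE 0.20, adjusted p = 1.14e-06). KIF20B was at 25.1, 19.2 and 20.8 CPM after cisplatin and at 118.9, 112.1 and 137.0 CPM in control cells (log2 change −2.50, SE 0.15, adjusted p = 2.18e-07).

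**Figure D4:**
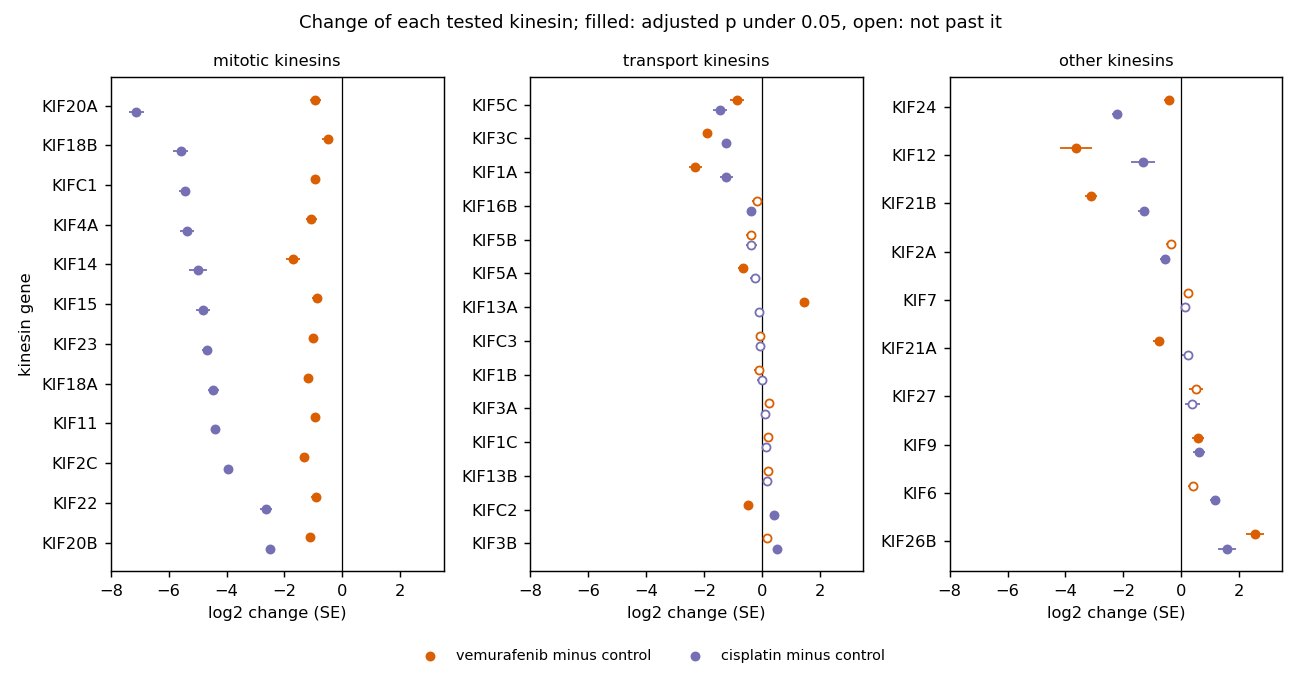
Log2 change of each tested kinesin with its standard error, for vemurafenib minus control and cisplatin minus control, which share their control libraries. Filled points passed an adjusted p of 0.05. The mitotic kinesins span −1.70 to −0.50 after vemurafenib and −7.13 to −2.50 after cisplatin, while most transport kinesins lie near 0.

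Among 14 transport kinesins, 2 rose and 4 fell after cisplatin, where 22.7% of all genes rose and 23.5% fell, and their median log2 change was −0.07. The groups did not overlap for 8 of them, where 67.0% of all genes tested did not overlap. KIF5C was at 3.95, 5.90 and 5.06 CPM after cisplatin and at 13.9, 14.9 and 11.9 CPM in control cells (log2 change −1.45, SE 0.25, adjusted p = 0.0007). KIF3C was at 37.5, 41.9 and 45.9 CPM after cisplatin and at 97.9, 101.5 and 96.2 CPM in control cells (log2 change −1.24, SE 0.12, adjusted p = 1.15e-05). KIF1A changed by −1.22 (SE 0.22, adjusted p = 0.000956). KIF3C, KIF1A and KIF5C were thus called lower after either drug, with the limit given above for KIF5C after vemurafenib. KIF16B, which moves early endosomes, had a log2 change of −0.38 (adjusted p = 0.0406), a call that was lost when any single control or cisplatin library was left out (adjusted p up to 0.148). It was also lost with total counts only and on both TPM scales (adjusted p up to 0.378).

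The rises were small. KIF3B was at 149.7, 161.5 and 160.8 CPM in cisplatin libraries and at 116.8, 108.2 and 106.9 CPM in control libraries (log2 change 0.51, SE 0.11, adjusted p = 0.00347). KIFC2 had a log2 change of 0.43 (adjusted p = 0.0179), which was lost without cisplatin replicate 2 or 3 or control replicate 1 or 3 (adjusted p up to 0.071). KIF5B did not pass (log2 change −0.36, adjusted p = 0.117), although its cisplatin libraries, at 182.3, 179.4 and 206.9 CPM, were all below its control libraries. Without vemurafenib replicate 1, which takes part in the shared estimate of spread, the KIF5B decrease passed (adjusted p = 0.00133). It also passed when only the groups compared were fitted (log2 change −0.35, adjusted p = 0.00177). KIFC3 had a log2 change of −0.05 (SE 0.15) and did not pass either.

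Of the other kinesins, 3 rose and 4 fell after cisplatin, where 22.7% of all genes rose and 23.5% fell. KIF24 was at 3.25, 3.60 and 4.13 CPM after cisplatin and at 18.1, 14.5 and 18.8 CPM in control cells, 4.67-fold lower (log2 change −2.22, SE 0.16, adjusted p = 9.46e-07). Its promoter window holds both elements, and so does that of KIF5B, which did not pass after cisplatin in the main fit. The part of these letters in the changes was not tested. KIF21B changed by −1.30 (SE 0.19, adjusted p = 0.000238). KIF12 changed by −1.31 (adjusted p = 0.0239) and KIF2A by −0.56 (adjusted p = 0.0155). The KIF12 call was lost without cisplatin replicate 2 or 3 or control replicate 1 or 2 (adjusted p up to 0.0969), and the KIF2A call without cisplatin replicate 1 or control replicate 3 (adjusted p = 0.0603 and 0.0513). KIF12 was also not called with DESeq2 (adjusted p = 0.0593), and KIF2A not on the log2(TPM + 1) and log2(TPM + 0.1) scales (adjusted p = 0.123 and 0.124). The exons of KIF2A also overlap those of IPO11 on the same strand over 8.97% of their length. KIF6, linked to the cilia of ependymal cells in mouse, was at 11.7, 12.1 and 12.6 CPM after cisplatin and at 6.52, 3.92 and 5.84 CPM in control cells. It rose by a log2 change of 1.16 (SE 0.18, adjusted p = 0.000313). KIF26B rose by 1.58 (SE 0.32, adjusted p = 0.00177), at 2.91, 3.19 and 3.13 CPM after cisplatin, but was not called on the log2(TPM + 1) scale (0.36, adjusted p = 0.0688). KIF9 changed by 0.61 (adjusted p = 0.0252), a call lost without cisplatin replicate 1 or control replicate 2 or 3 (adjusted p up to 0.109), and 14.9% of its exonic bases overlap KIF9-AS1 on the other strand.

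**Figure D5:**
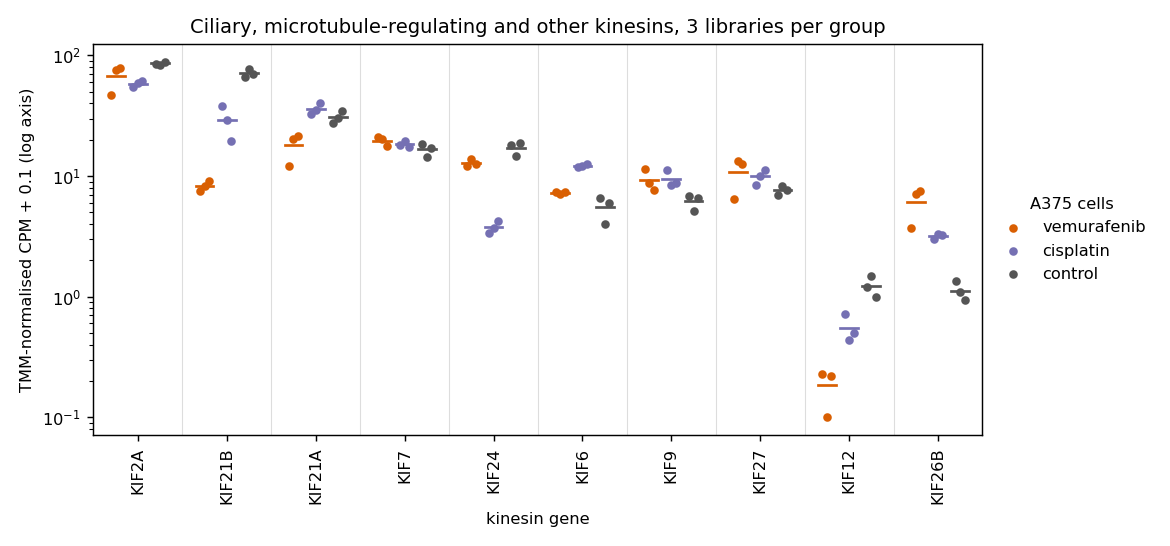
Level of each tested kinesin outside the mitotic and transport classes in every library (CPM + 0.1, log axis), by group, with points for libraries and a line for the mean, and genes ordered by their TPM in control cells. KIF21B separates all 3 groups, KIF24 is lowest after cisplatin, and KIF26B is highest after vemurafenib.

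Set against each other, the treated groups differed in every tested mitotic kinesin. Over the family, 15 of 36 kinesins were higher and 8 lower after vemurafenib, where 43.7% of all genes tested were called. Of 12 mitotic kinesins, 12 were higher in vemurafenib than in cisplatin libraries, with no overlap, where 23.0% of all genes tested were called higher and 54.0% did not overlap. The median log2 difference was 3.56, with a range of 1.39 for KIF20B to 6.20 for KIF20A. KIF20A was at 102.7, 78.6 and 65.2 CPM in vemurafenib libraries and at 1.66, 0.95 and 0.733 CPM in cisplatin libraries (SE 0.26, adjusted p = 2.01e-08). KIF18B differed by 5.09, KIFC1 by 4.51 and KIF4A by 4.30, while KIF22 differed by 1.73 (SE 0.19, adjusted p = 2.6e-05).

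Of the 14 transport kinesins, 1 was higher after vemurafenib than after cisplatin and 4 were lower, where 23.0% and 20.8% of all genes were. KIF13A was the higher one (log2 difference 1.56, SE 0.14, adjusted p = 4.42e-06). KIF1A (−1.07, adjusted p = 0.00391), KIFC2 (−0.90, adjusted p = 0.000188), KIF3C (−0.66, adjusted p = 0.00135) and KIF3B (−0.32, adjusted p = 0.0418) were lower. KIFC2 was at 40.3, 29.2 and 30.5 CPM after vemurafenib, 59.0, 64.3 and 63.4 CPM after cisplatin and 44.9, 50.4 and 43.3 CPM in control cells. Its libraries were thus lower than control after vemurafenib and higher after cisplatin. The KIF3B difference was lost without any one of the cisplatin libraries or control replicate 1 or 2 (adjusted p up to 0.123). It was also lost with total counts only, on both TPM scales, with no count filter and with only the groups compared (adjusted p up to 0.168). Without vemurafenib replicate 1, 4 transport kinesins were called higher in place of 1. Among the other kinesins, KIF24 (1.79) and KIF26B (0.97) were higher after vemurafenib, and KIF12 (−2.33), KIF21B (−1.81), KIF21A (−1.01) and KIF6 (−0.76) were lower. The KIF12 difference was lost without cisplatin replicate 1 (adjusted p = 0.057), and that of KIF26B on the log2(TPM + 0.1) scale (0.82, adjusted p = 0.0678). KIF2A did not pass (0.20, adjusted p = 0.344), but did without vemurafenib replicate 1 (0.41, adjusted p = 0.000687).

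Proteins that work with the motors were read from lists of textbook partners. Of 20 mitotic partners of kinesins, all tested, 20 were lower after vemurafenib (median log2 change −0.92), where 22.9% of all genes were. After cisplatin 20 were lower (−5.17), where 23.5% of all genes were. After vemurafenib 20 were higher than after cisplatin (4.01), where 23.0% of all genes were. CENPE, a kinesin that moves chromosomes to the spindle equator but does not carry a KIF symbol, was at 31.8 CPM after vemurafenib, 2.47 CPM after cisplatin and 83.1 CPM in control cells on average. Its log2 change was −1.39 after vemurafenib (SE 0.12, adjusted p = 3.57e-06) and −5.07 after cisplatin (SE 0.15, adjusted p = 1.42e-09). HMMR, a spindle protein, changed by −1.53 and −7.00 in these comparisons, and CIT, the citron kinase that KIF14 binds, by −1.41 and −2.05. ANLN, a scaffold of the cleavage furrow, changed by −0.98 and −5.81. AURKB, the kinase of the chromosomal passenger complex, differed by 4.92 between vemurafenib and cisplatin, and HMMR by 5.47. Leaving out 1 library left between 17 and 20 of these partners lower after vemurafenib.

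Of 16 tested light chains and cargo adaptors of transport kinesins, 3 rose and 2 fell after vemurafenib, where 22.0% of all genes rose and 22.9% fell. After cisplatin 7 rose and 0 fell, where 22.7% and 23.5% of all genes did. After vemurafenib 4 were higher and 7 lower than after cisplatin, where 23.0% and 20.8% of all genes were. TRAK1, which links kinesin-1 to mitochondria, averaged 95.2 CPM after vemurafenib, 54.7 CPM after cisplatin and 39.7 CPM in control cells. It rose by a log2 change of 1.26 (SE 0.13, adjusted p = 1.19e-05) after vemurafenib and differed by 0.80 from cisplatin. PLEKHM2, which links kinesin-1 to lysosomes, changed by 0.46 after vemurafenib (adjusted p = 0.0135), a call lost without control replicate 3 (0.0571). RHOT2, a mitochondrial GTPase that binds TRAK adaptors, was higher after vemurafenib than after cisplatin by 0.57 (adjusted p = 0.0147), and this was lost without cisplatin replicate 3 (0.0566). TRAK2 changed by 0.59 after cisplatin (adjusted p = 0.0149), which was lost without control replicate 1 or 2 or cisplatin replicate 2 or 3 (adjusted p up to 0.0595). KLC4 and KLC2, light chains of kinesin-1, changed by −0.82 and −0.64 after vemurafenib (adjusted p = 0.00396 and 0.000713). BORCS5, which helps attach kinesin-1 to lysosomes, averaged 24.1 CPM after cisplatin and 12.7 CPM in control cells (log2 change 0.93, SE 0.12, adjusted p = 7.88e-05). BORCS5 and KLC4 were lower after vemurafenib than after cisplatin, by log2 differences of −0.95 and −0.80. KIFAP3, the third subunit of the KIF3A and KIF3B motor, had log2 changes of 0.16 after vemurafenib and −0.18 after cisplatin, and neither passed. It was higher after vemurafenib than after cisplatin (0.34, adjusted p = 0.0265). This call was lost without vemurafenib replicate 2 or 3 or cisplatin replicate 1 or 2, and on both TPM scales (adjusted p up to 0.11). KIFBP, which binds several motor domains and keeps them off microtubules, had −0.20 and −0.03, and neither passed. Without vemurafenib replicate 1, KIFAP3 was called higher after vemurafenib (0.25, adjusted p = 0.0225). Counts of adaptors called higher ranged from 1 to 5 after vemurafenib, 3 to 7 after cisplatin and 2 to 5 between the drugs when 1 library was left out, and of those called lower from 2 to 3, 0 to 2 and 4 to 8.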

How the data were processed

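Per the labels, RNA-seq was run on 9 libraries of A375 cells, 3 per group. Per the submitters' processing notes, HISAT2 2.0.4 was used for alignment and hg38 as the genome. For counting tool, annotation and strand, the sources used here give nothing. The authors deposited estimated counts, TPM and FPKM per gene, so named per the file headers. Estimated counts, of which 13.6% to 14.1% of a library's values were not whole (tolerance 1e-06), were rounded. TPM values as deposited gave the class sums, the order of genes and the TPM alternatives. FPKM values as deposited served, with the counts, for the length of each gene.

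Genes were kept by edgeR's filterByExpr (13989 genes), libraries scaled by TMM, and group means fitted over all 9 libraries (edgeR 4.0.16, R 4.3.3; residual degrees of freedom 6, biological coefficient of variation 0.139). Each contrast had a two-sided quasi-likelihood F test. Benjamini-Hochberg adjustment ran over all genes tested, with a threshold of 0.05. The fit was tested on simulated data. Of simulated 1.5-fold changes it recovered 22.7% for vemurafenib against control, 32.8% for cisplatin against control and 24.6% between the drugs. For 2-fold changes these shares were 80.3%, 85.1% and 69.2%. A gene that did not pass is thus not shown to be unchanged. All 41 kinesins matched RefSeq by identifier. Alternatives were other scalings, filters and tools (DESeq2 1.42.0, limma 3.58.1), a replicate block and leaving out each library. No library was a duplicate of another.

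The kinesins, their classes and the partner lists were chosen with earlier results of these data known. The text names every tested mitotic kinesin, the transport and other kinesins past the threshold or among the 3 most abundant of their class by mean TPM, KIF1C, which is close to them, up to 2 of the largest called rises and falls of each partner list, and CENPE, FOXM1, KIFAP3 and KIFBP. The labels number the libraries 1 to 3 in each group. Deviations of same-numbered vemurafenib and control libraries from their group means correlated across genes at 0.18, 0.14 and 0.18. This met a rule of over 0.1 in every pair, which comes from the data and not from the labels. The main fit nevertheless left the numbers out, so its p-values are unpaired. They entered only the replicate block among the alternatives. For cisplatin and control the values were 0.21, 0.08 and 0.13, and for vemurafenib and cisplatin 0.17, 0.01 and 0.10, which does not meet the rule of over 0.1 in every pair.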

Additional observations from a re-analysis of the deposited data

How the results depend on the processing

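Of 85 kinesin results, each a gene in a comparison, 59 kept their direction and their side of the threshold in all 19 alternatives. The counts of mitotic kinesins called were 12 throughout, except 11 for vemurafenib against control where KIF18B was lost. With total counts only, 6 kinesins and 2 transport kinesins were called higher after vemurafenib, the median of all genes moved to 0.11, and 60.0% of calls were higher, against 49.1% with TMM; on log2(TPM + 1) and log2(TPM + 0.1) these shares were 59.3% and 59.2%, and 2 transport kinesins were called higher and 3 lower. The mitotic median after vemurafenib was −0.89, −0.87 and −0.89 with total counts, log2(TPM + 1) and log2(TPM + 0.1). On log2(TPM + 1) it was −3.99 after cisplatin and 2.97 between the drugs. The transport median after cisplatin was −0.01 in all 3 settings. With the replicate block, 2 transport kinesins in place of 1 were higher after vemurafenib than after cisplatin. The added one was not among the kinesins followed by gene in that comparison. Of the 85 results followed by gene, only that of KIF2A after vemurafenib changed its call. The block also left 2 tubulins in place of 1 lower after vemurafenib. Values that changed sign, none past the threshold in either setting, were KIFC3 after vemurafenib (0.04 with total counts and both TPM scales, 0.08 without vemurafenib replicate 2), after cisplatin (0.01 with total counts) and between the drugs (0.04 with total counts, 0.06 with both TPM scales, 0.01 with no count filter, 0.12, 0.01 and 0.05 without vemurafenib replicate 2 or 3 or cisplatin replicate 1), KIF5B between the drugs (0.04 with total counts, 0.20 and 0.05 without vemurafenib replicate 1 or cisplatin replicate 3) and KIFBP after cisplatin (0.03, 0.05 and 0.05 with total counts and both TPM scales, 0.07 without control replicate 3). The cause was not tested.

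Leaving out 1 library at a time, kinesins called higher ranged from 2 to 6 after vemurafenib, 3 to 6 after cisplatin and 15 to 20 between the drugs, and those called lower from 18 to 21, 18 to 21 and 6 to 9. Transport kinesins called higher ranged from 1 to 4, 1 to 2 and 1 to 4, and lower from 3 to 6, 3 to 5 and 3 to 5. The mitotic median ranged from −1.10 to −0.97, −4.91 to −4.52 and 3.43 to 3.71, and the transport median from −0.28 to −0.10, −0.11 to −0.03 and −0.12 to 0.07. Over all genes, 2378 to 3716, 2556 to 4220 and 2433 to 3755 were called higher, and 2661 to 3956, 2665 to 4422 and 2334 to 3402 lower. For results with a change of sign, the range was −0.23 to 0.08 (KIFC3 after vemurafenib), −0.19 to 0.12 (KIFC3 between the drugs), −0.18 to 0.20 (KIF5B between the drugs) and −0.09 to 0.07 (KIFBP after cisplatin). Levels of a few CPM, such as KIF12, rest on few counts.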

Other observations

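Tubulins, of which microtubules are built, moved differently after the drugs. Of 16 tested, 2 rose and 1 fell after vemurafenib, where 22.0% of all genes rose and 22.9% fell. After cisplatin 1 rose and 9 fell, where 22.7% and 23.5% of all genes did. After vemurafenib 11 were higher and 0 lower than after cisplatin, where 23.0% and 20.8% of all genes were. Leaving out 1 library, the number lower ranged from 1 to 5 after vemurafenib and 7 to 10 after cisplatin, and the number higher after cisplatin from 0 to 2. TUBA1A averaged 698.4 CPM after vemurafenib, 199.4 CPM after cisplatin and 136.1 CPM in control cells, a log2 change of 2.36 after vemurafenib (SE 0.19, adjusted p = 2.05e-06). Its change after cisplatin was 0.55 (adjusted p = 0.0259), a call that was lost without cisplatin replicate 2 or 3 or any control library (adjusted p up to 0.105). TUBB2B averaged 4.07 CPM after vemurafenib, 1.22 CPM after cisplatin and 7.86 CPM in control cells, with log2 changes of −0.95 and −2.68. TUBB2A changed by 0.81 after vemurafenib (adjusted p = 0.000611). TUBA1B averaged 1703.3 CPM after vemurafenib, 466.7 CPM after cisplatin and 1577.1 CPM in control cells, and changed by −1.76 after cisplatin (adjusted p = 3.4e-06). Many tubulin genes are near-identical in sequence, and the division of reads among them is uncertain.

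Of 18 cell cycle transcription factors and DREAM subunits, 1 rose and 7 fell after vemurafenib, 0 rose and 11 fell after cisplatin, and 10 were higher and 1 lower after vemurafenib than after cisplatin. The shares of all genes called in these directions are those given for the tubulins. FOXM1 averaged 138.5 CPM after vemurafenib, 7.84 CPM after cisplatin and 212.3 CPM in control cells. Its log2 change was −0.62 after vemurafenib (adjusted p = 0.0178), which was lost without vemurafenib replicate 2 (0.0561) or control replicate 3 (0.0736), and −4.76 after cisplatin (adjusted p = 2.44e-08). E2F7 and E2F1 had the largest decreases after vemurafenib (log2 changes −1.32 and −0.92, adjusted p = 0.000261 and 0.00258), and RBBP4 was the one that rose (0.33, adjusted p = 0.0113). MYBL2 averaged 91.4 CPM after vemurafenib, 2.98 CPM after cisplatin and 101.7 CPM in control cells, a log2 change of −5.09 after cisplatin (SE 0.30, adjusted p = 1.36e-07). E2F2 averaged 6.15 CPM after vemurafenib, 0.273 CPM after cisplatin and 10.7 CPM in control cells, a log2 change of −5.26 after cisplatin (SE 0.28, adjusted p = 6.79e-08). E2F3 was lower after vemurafenib than after cisplatin (−0.63, adjusted p = 0.00211).

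Cytoplasmic dynein and dynactin, which carry cargo the other way along microtubules, had 23 tested members. Of these, 4 rose and 3 fell after vemurafenib, where 22.0% of all genes rose and 22.9% fell. After cisplatin 5 rose and 3 fell, where 22.7% and 23.5% of all genes did. After vemurafenib 3 were higher and 2 lower than after cisplatin, where 23.0% and 20.8% of all genes were. Leaving out 1 library, the number higher ranged from 2 to 5, 1 to 6 and 1 to 4 in these comparisons, and the number lower from 2 to 5, 2 to 7 and 2 to 4. DYNC1I1, an intermediate chain of dynein, averaged 5.91 CPM after vemurafenib, 5.17 CPM after cisplatin and 2.51 CPM in control cells (log2 changes 1.23 and 1.03, adjusted p = 0.00288 and 0.00836). NDE1, a dynein regulator that also acts in mitosis, averaged 37.6 CPM after vemurafenib, 52.7 CPM after cisplatin and 91.4 CPM in control cells (log2 changes −1.28 and −0.80, adjusted p = 1.89e-06 and 6.25e-05). DYNLT3, a light chain, averaged 146.0 CPM after vemurafenib, 361.5 CPM after cisplatin and 227.0 CPM in control cells. Its log2 changes were −0.64 after vemurafenib (adjusted p = 0.0157), lost without control replicate 1 or 2 (0.0612 and 0.0586), and 0.67 after cisplatin (adjusted p = 0.0113), lost without control replicate 3 (0.0545). DYNLL2 changed by 0.49 after vemurafenib and BICD2 by −0.40 after cisplatin (adjusted p = 0.00168 and 0.00483). The BICD2 call was lost on the log2(TPM + 1) and log2(TPM + 0.1) scales (adjusted p = 0.0861 and 0.0845). DCTN1 and DCTN3 were higher after vemurafenib than after cisplatin (0.43 and 0.42, adjusted p = 0.008 and 0.0452), and the DCTN3 call was lost in 10 of 19 alternatives, with adjusted p up to 0.133.

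Summed marker levels were 2061.6 to 2223.1 TPM after vemurafenib, 3628.9 to 4010.8 TPM after cisplatin and 1392.9 to 1587.3 TPM in control cells for the melanocyte list. Most of the sum after cisplatin came from S100A1, at 2643.3 to 3112.8 TPM in cisplatin libraries. The epithelial list summed to 139.0 to 211.6, 328.2 to 363.6 and 410.8 to 472.1 TPM in these groups. The sums were 17.6 to 28.8, 12.4 to 27.7 and 9.33 to 13.1 TPM for fibroblast markers, 2.84 to 10.9, 19.4 to 21.8 and 6.45 to 8.42 TPM for endothelial markers, and 6.34 to 13.7, 45.0 to 77.5 and 9.35 to 13.5 TPM for blood markers. Their part in the kinesin results was not tested.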
